A study of Mus musculus with 2 samples.

Results

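*Dlx1*, *Dlx2*, *Sp8* and *Eya2* are 4 of the 28692 genes counted in both droplet libraries of *LHX4::GFP* mouse retina at E14.5. They were taken by symbol and chosen by their UMI counts in these libraries, since they lead the cells between progenitors and ganglion or amacrine cells in the GFP− library. Their high level in those cells is therefore a description and not a finding. The libraries came from embryos of the strain Tg(Lhx4::EGFP)KN199Gsat/Mmucd, heterozygous for a BAC transgene in which *Lhx4* sequences drive EGFP in early cone photoreceptors. GFP-positive retinas of 2 litters were pooled and sorted, and the GFP+ and the GFP− gate each gave 1 library, so both gates carried the transgene and shared the same animals. No wild-type retina and no second library of either gate was compared.

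*Dlx1* and *Dlx2* encode homeodomain transcription factors of the distal-less family, which act with overlapping roles in forebrain interneurons and in the developing retina, where mice lacking both lose a part of their retinal ganglion cells (RGCs). *Sp8* encodes a zinc finger transcription factor of the SP family that is known from limb outgrowth, forebrain patterning and the interneurons of the olfactory bulb. *Eya2* encodes a coactivator with phosphatase activity that binds homeodomain proteins of the sine oculis family (such as *Six3*) and belongs, with these and the dachshund genes (*Dach1*, *Dach2*), to a network first described in fly eye formation.

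In GRCm38 (GENCODE M21), *Dlx1* lies on the plus strand at chr2:71528113-71533981 and *Dlx2* on the minus strand at chr2:71543408-71546754. Both have up to 3 exons per transcript, and their 3′ ends face each other across 9.43 kb. The antisense RNA *Dlx1as* covers all 5869 bases of *Dlx1* on the other strand. *Eya2*, with up to 16 exons over 177 kb, lies on the same chromosome at chr2:165595032-165771727, 94.0 Mb away. *Sp8* is at chr12:118846329-118852576 on the plus strand. Since *Dlx1* and *Dlx2* moved together in most comparisons and *Sp8* apart from them, the 250 bases before the RefSeq start of each are shown (GRCm38.p6). That of *Dlx1* lies within the gene as GENCODE gives it, since the RefSeq start is 1332 bases inside the GENCODE start. Capitals mark the letters CANNTG, the core bound by bHLH factors such as ATOH7.

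Dlx1, chr2:71529195-71529444, plus strand: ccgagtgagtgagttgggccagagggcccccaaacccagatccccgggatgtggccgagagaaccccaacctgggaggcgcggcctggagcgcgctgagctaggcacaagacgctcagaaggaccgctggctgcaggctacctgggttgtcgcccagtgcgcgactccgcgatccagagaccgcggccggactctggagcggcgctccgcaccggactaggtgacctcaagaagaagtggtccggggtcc
Dlx2, chr2:71546755-71547004, minus strand: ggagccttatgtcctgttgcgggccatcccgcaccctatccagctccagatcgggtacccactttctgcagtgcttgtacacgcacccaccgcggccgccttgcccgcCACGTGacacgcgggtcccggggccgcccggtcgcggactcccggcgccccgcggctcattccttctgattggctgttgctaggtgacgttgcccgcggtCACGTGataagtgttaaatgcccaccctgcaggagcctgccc
Sp8, chr12:118846079-118846328, plus strand: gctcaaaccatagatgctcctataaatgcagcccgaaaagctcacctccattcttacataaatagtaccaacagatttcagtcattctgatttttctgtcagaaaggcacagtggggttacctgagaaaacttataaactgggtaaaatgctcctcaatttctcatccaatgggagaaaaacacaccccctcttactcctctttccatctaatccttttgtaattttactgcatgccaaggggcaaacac

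The *Dlx2* window held 2 matches, both CACGTG, which begin 142 and 42 bases before the start, and the *Dlx1* and *Sp8* windows held 0. CANNTG was present in 66.2% of 32851 mouse windows of this length and CACGTG, which is 1 form of it, in 6.02%. CAGCTG was in 13.0% of windows and in 0 of these 3, and the homeodomain core TAATTA was in 4.84% and in 0 of these 3. Both strands were searched, since each motif reads the same on either. GC content was 68% for *Dlx1*, 66.4% for *Dlx2* and 40.8% for *Sp8*. The RefSeq table gave 3 windows for *Sp8*, of which the one at the GENCODE start is shown.

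Cells with more than 250 and fewer than 3500 genes were kept, which left 3689 GFP+ cells with a median of 3894 UMIs and 3389 GFP− cells with a median of 8848 UMIs. A UMI marks 1 captured transcript. Levels are UMIs summed over a group per 1000000 UMIs (CPM). Intervals are at 95%, from the Poisson distribution for levels, the binomial for shares of cells (Clopper-Pearson) and the conditional binomial for ratios. With 1 library per gate, all of these cover counting error only, and no p-value was computed. Of the barcodes, 20 occurred in both libraries. Since reads are captured near the 3′ end, levels are compared between cell groups for each gene and not between genes.

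Cell groups in the GFP− library were set by UMIs of genes other than the 4, in a fixed order. Cells with 3 or more UMIs of *Gngt2*, *Gnb3*, *Pdc* and *Gnat2* were called cone cells (55), and cells with 5 or more of *Rbpms*, *Sncg*, *Nefl*, *Nefm* and *Pou4f1* differentiated ganglion cells (242). Ptf1a cells (265) had 2 UMIs or more of *Ptf1a*. Tfap2b cells (32) had 2 UMIs or more of *Tfap2b* and fewer than 2 of *Ptf1a*. Both genes are regulators of amacrine and horizontal cells, and 15 more cells with *Onecut1* or *Lhx1* beside *Tfap2b* were of horizontal type. Next came Pou4f2 cells (163), with 2 UMIs or more of the early RGC regulator *Pou4f2*, then Olig2 cells (192), then Otx2/Crx cells (179), then Atoh7 cells (194). *Atoh7* is the bHLH gene needed to make RGCs, *Olig2* marks a class of neurogenic progenitor, and *Otx2* and *Crx* mark photoreceptor precursors. Multipotent progenitor cells (1915) had 3 or more UMIs of progenitor markers that include *Sfrp2*, *Hes1* and *Fgf15*. By this order, Atoh7 cells had no *Olig2* UMI, fewer than 2 UMIs of *Otx2* and *Crx*, and fewer than 2 of *Pou4f2*.

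A further 101 cells met more than 1 of the cone, ganglion and amacrine or horizontal rules. Of these, 100 met the amacrine or horizontal and the ganglion rule, the latter mainly through neurofilament genes. These cells had 656 CPM of *Nefl* and 955 CPM of *Nefm*, against 1314 and 931 CPM in ganglion cells, but 8.80 CPM of *Rbpms* against 179 CPM, and 99.8 CPM of *Sncg* against 2992 CPM. Another 36 cells met no rule, and in them *Dlx1* stood at 110 CPM, *Dlx2* at 183 CPM (134 to 245), *Sp8* at 24.4 CPM and *Eya2* at 89.6 CPM, with 3 or more of the 4 genes in 8 cells. Of 293 cells with 2 *Pou4f2* UMIs, 0 had 2 UMIs of *Ptf1a* or *Tfap2b*.

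Summed over each library, all 4 genes were lower in the GFP+ library of sorted cone precursors than in the GFP− library. *Dlx1* stood at 44.7 CPM in the GFP− and 4.06 CPM in the GFP+ library, an 11.0-fold difference (8.55 to 14.4). *Dlx2* stood at 53.6 and 4.32 CPM, 12.4-fold (9.72 to 16.1), and *Eya2* at 35.5 and 1.68 CPM, 21.2-fold (14.4 to 32.6). *Sp8* had 275 UMIs in the GFP− library and 2 in the GFP+ library, 9.14 against 0.129 CPM. Its ratio was 70.8, with an interval from 19.4 to 588, and 24.4 with no upper limit on genes per cell or with no filter on cells. All 4 were among the 16.2% of 15236 genes at least 2-fold higher in the GFP− library. They were chosen for a high level in cells of that library, so nothing is read from this count.

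The shares in cone cells were taken as a reference for those in other groups, and background RNA was not measured. In the 3552 GFP+ cells with cone markers (median 3873.5 UMIs), a *Dlx1* UMI was found in 1.44%, a *Dlx2* UMI in 1.35%, an *Eya2* UMI in 0.366% and a *Sp8* UMI in 0.0282%. Their levels, in this order, were 3.62, 3.62, 0.888 and 0.0683 CPM. The multipotent progenitor cells, 56.5% of the GFP− cells, had 2.89, 4.70, 4.36 and 0.453 CPM. These intervals overlapped for *Dlx1*, *Dlx2* and *Sp8* and did not meet for *Eya2*. In the 55 cone cells of the GFP− library (median 4622 UMIs) the shares were 3.64% (0.443 to 12.5%), 1.82%, 5.45% and 0%, the last allowing up to 6.49%. Of the GFP+ library's UMIs, 53 of 63 for *Dlx1*, 53 of 67 for *Dlx2* and 13 of 26 for *Eya2* were in cone cells, which were 3552 of its 3689 kept cells. The remainder sat in few cells, with 14 *Dlx2* UMIs in 10 of the 137 other cells. Among the 8 GFP+ cells with 2 *Ptf1a* UMIs, 4 had a *Dlx2* UMI and 2 a *Dlx1* UMI.

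Within the GFP− library the *Dlx* genes were highest in Atoh7 and Pou4f2 cells. *Dlx1* stood at 208 CPM (187 to 231) in Atoh7 and 206 CPM (184 to 230) in Pou4f2 cells, and these did not differ beyond counting error. It then fell to 138 CPM in Ptf1a cells, 82.6 CPM in Olig2 cells, 62.7 CPM in Tfap2b cells, 44.1 CPM in Otx2/Crx cells, 32.5 CPM in ganglion cells, 10.9 CPM in cone cells and 2.89 CPM (2.15 to 3.80) in progenitor cells. The intervals of neighbours in this order overlapped except between Pou4f2 and Ptf1a cells and between Ptf1a and Olig2 cells, and that of progenitor cells overlapped only that of the cone cells.

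*Dlx2* was highest in Atoh7 cells alone. It stood at 339 CPM (312 to 367) in Atoh7 cells and 226 CPM (203 to 251) in Pou4f2 cells, with intervals that did not meet. Olig2 cells followed with 118 CPM (103 to 136) and Ptf1a cells with 90.4 CPM (77.3 to 105), then Otx2/Crx cells with 69.8 CPM, Tfap2b cells with 62.7 CPM and ganglion cells with 25.5 CPM. Progenitor cells had 4.70 CPM and cone cells 1 UMI, or 3.62 CPM. Atoh7 and Pou4f2 cells thus came before all other groups for both *Dlx* genes, but Ptf1a cells exceeded Olig2 cells for *Dlx1*, while for *Dlx2* their intervals overlapped, with Olig2 cells the higher.

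*Sp8* was the most restricted of the 4. It stood at 94.4 CPM (79.8 to 111) in Pou4f2 cells, 32.1 CPM (24.2 to 41.8) in Atoh7 cells, 11.4 CPM (7.77 to 16.2) in ganglion cells and 7.98 CPM (4.47 to 13.2) in Ptf1a cells. Otx2/Crx and Olig2 cells had 6 and 7 UMIs, or 4.41 and 4.19 CPM, which did not differ from Ptf1a cells beyond their intervals. In the 1915 progenitor cells 8 UMIs were found, 0.453 CPM. Pou4f2 cells, 4.81% of the GFP− cells, held 53.5% of its UMIs, and for *Dlx1*, *Dlx2* and *Eya2* they held 23.8%, 21.8% and 20.9%.

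*Eya2* was the broadest. Pou4f2 cells had 143 CPM (125 to 163), Atoh7 cells 132 CPM (115 to 150) and Olig2 cells 114 CPM (98.1 to 131), and these neighbours could not be told apart at this depth. Otx2/Crx cells had 73.4 CPM (59.7 to 89.3) and ganglion cells 63.8 CPM (54.7 to 74.1), again overlapping, and Ptf1a cells had 28.2 CPM (21.1 to 36.9). Tfap2b cells held 1 UMI, cone cells 3 UMIs, and progenitor cells 4.36 CPM (3.44 to 5.45).

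**Figure D1:**
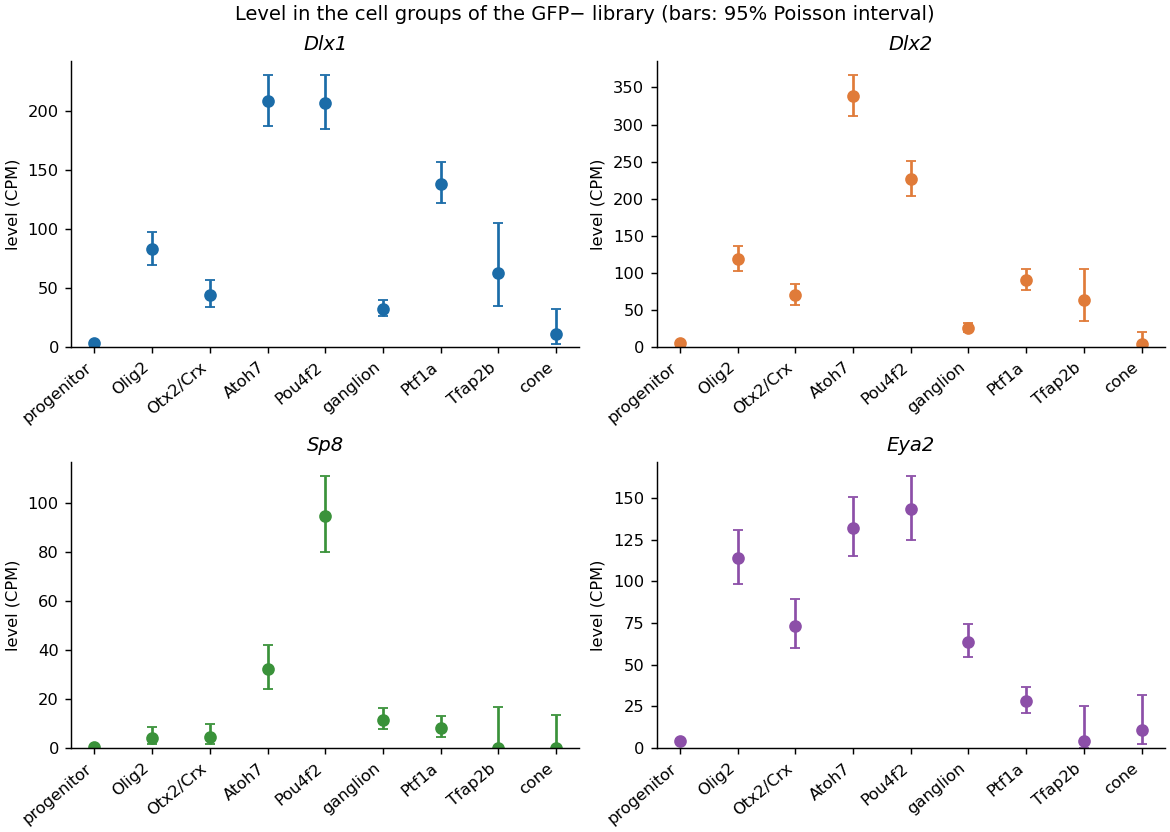
Level of each gene (CPM, linear axes that start at 0 and differ between panels) in 9 cell groups of the GFP− library; points are group sums and bars 95% Poisson intervals. Dlx1 and Dlx2 were highest in Atoh7 and Pou4f2 cells, Sp8 stood at 94.4 CPM in Pou4f2 cells and at most 32.1 CPM in the other groups shown, and Eya2 was similar in Olig2, Atoh7 and Pou4f2 cells.

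The shares of cells did not all follow the levels. Of Pou4f2 cells (median 9709 UMIs), 78.5% had a *Dlx1* UMI, 69.3% a *Dlx2* UMI, 63.2% an *Eya2* UMI and 44.2% a *Sp8* UMI. Of Atoh7 cells (median 8539.5 UMIs) the shares were 61.3%, 73.2%, 53.6% and 18.6%. *Dlx1* was thus found in fewer Atoh7 (54.1 to 68.2%) than Pou4f2 cells (71.4 to 84.6%) at levels that did not differ beyond counting error, but not so in thinned cells, where the intervals overlapped. With each cell thinned to 3200 UMIs, the shares in Pou4f2 cells were 39.5%, 41.4%, 37.0% and 21.6%, and in Atoh7 cells 36.8%, 51.8%, 29.5% and 8.29%. In thinned progenitor cells they were 0.945%, 1.37%, 1.63% and 0.105%, beside the 1.17%, 1.10%, 0.267% and 0.0334% of thinned GFP+ cone cells. In the 49 thinned cone cells of the GFP− library itself they were 4.08%, 2.04%, 4.08% and 0%, from at most 2 cells each. For all 4 genes these intervals overlapped those of progenitor cells. Progenitor cells nonetheless held up to 5 *Dlx1* and 9 *Dlx2* UMIs in a cell, against 3 and 2 in the GFP+ cone cells. In the 150 progenitor cells with 0 to 2 UMIs of replication genes, *Dlx1* stood at 16.9 CPM and *Dlx2* at 21.7 CPM, against 2.85 and 1.57 CPM in the 802 with 3 to 9. In the 963 with 10 or more, *Dlx1* stood at 1.06 CPM and *Dlx2* at 4.79 CPM (3.49 to 6.41). *Dlx2* was thus higher there than at 3 to 9 (0.781 to 2.80). The most UMIs seen in 1 cell were 16 for *Dlx1*, 14 for *Dlx2*, 7 for *Sp8* and 7 for *Eya2*.

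From progenitor cells to Pou4f2 cells, the ratio of CPM was 71.4 (53.0 to 97.9) for *Dlx1*, 48.1 (37.8 to 61.9) for *Dlx2*, 208 (103 to 492) for *Sp8* and 32.9 (25.3 to 43.1) for *Eya2*. From progenitor to Atoh7 cells, it was 72.0 (53.6 to 98.5), 72.0 (57.2 to 91.8), 70.9 (33.6 to 172) and 30.3 (23.3 to 39.7). All 4 were at least 2-fold higher in each, as were 13% of 13296 genes in Pou4f2 and 7.2% of 13257 genes in Atoh7 cells. Since the genes were chosen for this pattern, nothing is read from these counts. When cells that also met another group's rule were left out, the ratios of Pou4f2 to progenitor cells were 40.3 for *Dlx1*, 26.5 for *Dlx2* and 21.8 for *Eya2*, and those of Atoh7 to progenitor cells were 86.5, 78.2 and 37.9, with 105 for *Sp8*. At a threshold of 3 marker UMIs the former were 33.5, 23.9 and 25.1. At a threshold of 1 UMI, *Dlx2* in Pou4f2 cells had a ratio of 93.6 and *Sp8* in Atoh7 cells one of 27.9.

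Between Atoh7 and Pou4f2 cells, *Sp8* differed most. The ratio of Pou4f2 to Atoh7 cells was 2.94 (2.14 to 4.09) for *Sp8* and 1.09 (0.898 to 1.31) for *Eya2*. *Dlx2* was 1.5-fold higher (1.31 to 1.71) in Atoh7 cells and *Dlx1* was level, with a ratio of Atoh7 to Pou4f2 cells of 1.01 (0.864 to 1.18). *Sp8* was the only one of the 4 past 2-fold, as 9.86% of 10410 genes were in that direction and 11% in the other. The ratio of Atoh7 to Pou4f2 cells for *Sp8* stayed under 1 when the marker threshold was 1 UMI (0.130) or cells meeting more than 1 rule were left out (0.622). For *Dlx1* it moved to 0.600 and 2.15, for *Dlx2* to 0.864 and 2.95 and for *Eya2* to 0.615 and 1.74 under these settings, so that their direction depends on where the groups are divided.

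To follow the genes without fixed groups, cells were binned by the UMIs of a marker gene. In cells with no *Pou4f2* UMI and outside the cone, ganglion, amacrine and horizontal groups, *Dlx1* stood at 2.68 CPM where there was no *Atoh7* UMI (1838 cells), 17.9 CPM at 1 *Atoh7* UMI (158 cells), 99.7 CPM at 2 to 3 (139 cells), 117 CPM at 4 to 7 (184 cells) and 148 CPM at 8 or more (116 cells). *Dlx2* stood at 3.51, 44.5, 147, 186 and 245 CPM and *Eya2* at 4.94, 31.6, 78.3, 122 and 141 CPM in the same bins. All 3 were higher in each bin than in the one before it. Up to the bin of 2 to 3 *Atoh7* UMIs the intervals of neighbouring bins did not meet for any of the 3. After it they stayed apart only at the last step of *Dlx2* and at the step of *Eya2* into the bin of 4 to 7. Overlap of intervals does not by itself show that neighbouring bins were level. *Sp8* stood at 0.417, 2.87, 12.5, 6.48 and 9.53 CPM and did not differ among the last 3 bins beyond counting error. The median depths of the bins lay between 7886 and 9245.5 UMIs, with the highest at 0 *Atoh7* UMIs.

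In cells with at least 1 *Atoh7* UMI, all 4 genes were higher at 1 *Pou4f2* UMI than at none, *Sp8* by the most. *Sp8* stood at 7.44 CPM (5.26 to 10.2) in 597 cells with no *Pou4f2* UMI and at 87.2 CPM (60.4 to 122) in 44 cells with 1. It then stood at 101, 96.2 and 79.7 CPM at 2 to 3, 4 to 7 and 8 or more. The 597 cells mix Atoh7 cells with Olig2, Otx2/Crx and progenitor cells, in which *Sp8* was low. In cells with 2 or more *Atoh7* UMIs, fewer than 2 of *Pou4f2* and no *Otx2* UMI, *Sp8* stood at 36.3 CPM. That set admits cells with 1 *Pou4f2* UMI, which are on the other side of the comparison. In cells with no *Pou4f2* UMI and any number of *Otx2* UMIs, it stood at 12.5, 6.48 and 9.53 CPM at 2 to 3, 4 to 7 and 8 or more *Atoh7* UMIs. The part that the mix of groups in the 597 cells had in the difference was not tested. *Sp8* was therefore level from 1 *Pou4f2* UMI onward. *Dlx2* went from 151 CPM to 410 CPM (349 to 479) at 1 *Pou4f2* UMI, and then to 315, 184 and 190 CPM. *Dlx1* went from 92.4 to 274 CPM and then to 270, 175 and 215 CPM. Both *Dlx* genes were lower at 4 to 7 *Pou4f2* UMIs than at 1 beyond counting error, and at 8 or more (16 cells) this held for *Dlx2* only. *Eya2* stood at 91.6, 154, 153, 136 and 202 CPM, with overlapping intervals in the 4 bins that had *Pou4f2*.

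All 4 genes were lower where ganglion cell genes were found. Cells with 2 or more *Pou4f2* UMIs were binned by UMIs of *Rbpms*, *Sncg*, *Nefl*, *Nefm* and *Pou4f1*. *Dlx1* stood at 280 CPM (242 to 322) at 0 such UMIs (76 cells), 146 CPM at 1 to 4 (87 cells), 84.0 CPM at 5 to 14 (24 cells) and 32.2 CPM (22.9 to 44.1) at 15 or more (106 cells). *Dlx2* stood at 283, 180, 34.4 and 41.3 CPM. Both therefore differed already between 0 and 1 to 4 ganglion cell UMIs. *Sp8* stood at 104, 86.4, 57.3 and 11.6 CPM, with overlapping intervals in the first 3 bins. *Eya2* stood at 174, 118, 64.9 and 78.5 CPM. In these bins the median depth was 9218.5, 10036, 11060.5 and 11822 UMIs, rising across the bins.

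**Figure D2:**
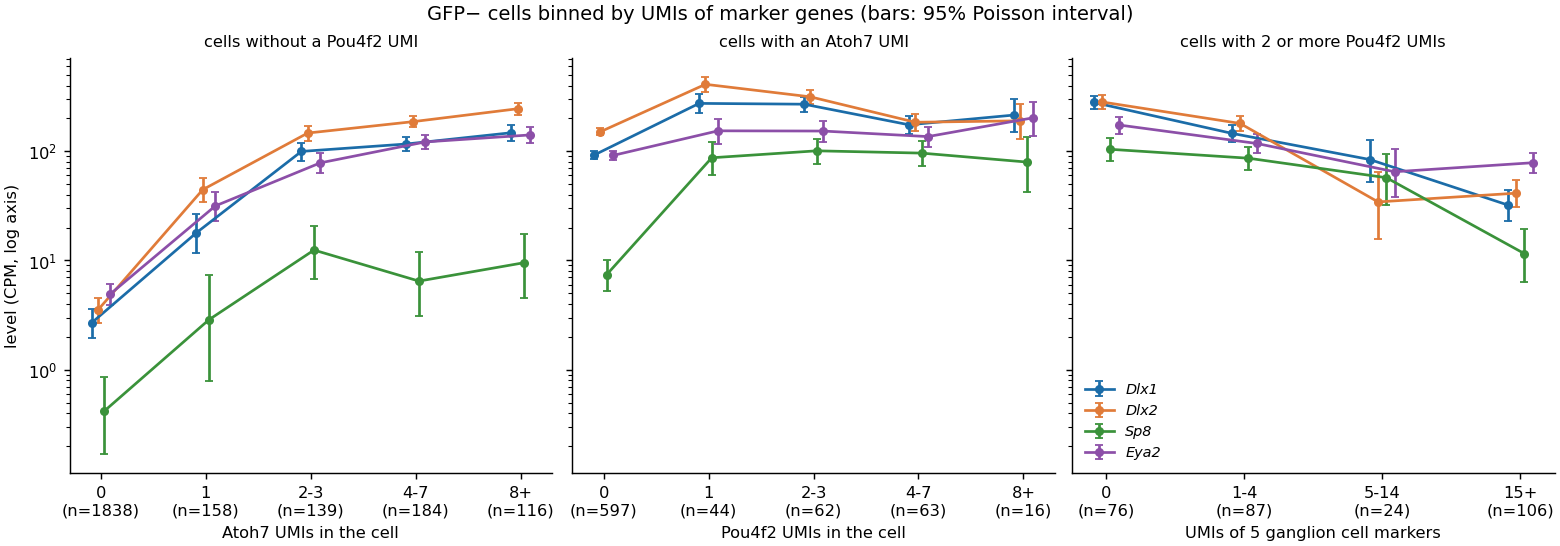
Level of each gene (CPM, log axis) in GFP− cells binned by Atoh7 UMIs, by Pou4f2 UMIs and by UMIs of 5 ganglion cell markers, with the number of cells under each bin; bars are 95% Poisson intervals. Dlx1, Dlx2 and Eya2 rise with Atoh7 UMIs, Sp8 steps from 7.44 to 87.2 CPM at the first Pou4f2 UMI, and all 4 are lower at 15 or more ganglion cell UMIs than at 0.

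As groups, Pou4f2 cells exceeded ganglion cells by 6.35-fold (5.0 to 8.13) for *Dlx1*, 8.88-fold (6.84 to 11.7) for *Dlx2*, 8.25-fold (5.57 to 12.6) for *Sp8* and 2.24-fold (1.83 to 2.75) for *Eya2*. All 4 were past 2-fold, beside 8.49% of 10851 genes. The genes were chosen for a high level in precursor cells, so nothing is read from this count. The *Sp8* ratio was 15.5 with no upper limit on genes per cell, 14.6 in thinned cells and 40.2 in cells that met 1 rule, and in such cells those of *Dlx1* and *Dlx2* were 4.70 and 16.3. *Eya2* was under 2-fold in them (1.96) and at a marker threshold of 1 UMI (1.97). *Eya2* UMIs were still found in 43.8% of ganglion cells (18.2% thinned), against 27.3% for *Dlx1* (9.50% thinned), 21.1% for *Dlx2* (7.44%) and 7.85% for *Sp8* (1.24%). *Isl1*, a LIM homeodomain gene of RGCs, had a UMI in 240 of the 242 ganglion cells, so that almost all of these shares are of cells with *Isl1*.

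In cells with *Atoh7*, the *Dlx* genes and *Sp8* were lower where *Otx2* was higher, and *Eya2* was lower by less. In 477 cells with 2 or more *Atoh7* UMIs and fewer than 2 of *Pou4f2*, *Dlx1* stood at 224 CPM (201 to 250) without an *Otx2* UMI, 140 CPM at 1, 94.4 CPM at 2 to 3 and 59.5 CPM (48.0 to 73.0) at 4 or more. *Dlx2* stood at 353, 224, 169 and 83.5 CPM. *Sp8* stood at 36.3, 14.8, 10.9 and 0.647 CPM, the last being 1 UMI in 185 cells. *Eya2* stood at 141, 114, 113 and 99.0 CPM (83.9 to 116), and only its first and last bins had intervals that did not meet. Median depths were between 7921 and 8552 UMIs. The 477 cells include Olig2 cells beside Atoh7 and Otx2/Crx cells. Among the larger groups *Otx2* was highest in Olig2 cells (784 CPM), so high *Otx2* does not mark photoreceptor precursors alone. The part that this mix had in the bins was not tested.

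The same cells were also divided by the *Dlx* genes themselves, into 232 cells with 2 or more UMIs of *Dlx1* and *Dlx2* together and 172 with none (medians 8870.5 and 7345 UMIs). *Atoh7* was level between them, 673 against 676 CPM, a ratio of 0.996 (0.916 to 1.08). *Isl1* was 7.33-fold higher (4.64 to 12.2) in the cells with *Dlx* UMIs, *Pou4f2* 3.03-fold (1.23 to 8.95) and the GABA-synthesis gene *Gad2* 3.65-fold (1.70 to 8.97). *Crx* was lower in them at 13.9 against 112 CPM, a ratio of 0.124 (0.0802 to 0.185), and *Otx2* at 265 against 793 CPM, a ratio of 0.334 (0.301 to 0.370). *Neurog2*, a proneural bHLH gene, and *Olig2* were lower by less, with ratios of 0.686 and 0.675. *Sp8* was 20.8-fold higher, from 64 against 2 UMIs, and *Eya2* 2.48-fold (1.96 to 3.18). The cells divided here are a mix of Atoh7, Olig2 and Otx2/Crx cells, groups that differ in their *Dlx* levels and that *Otx2*, *Crx* and *Olig2* helped to set. Whether this mix or the difference in depth has a part in these ratios was not tested. Pou4f2 cells divided in the same way gave 118 cells with 2 or more *Dlx* UMIs and 19 with none. There *Isl1* went the opposite way, 937 against 1224 CPM, a ratio of 0.766 (0.661 to 0.890). *Pou4f2*, which set this group, had a ratio of 0.827 (0.663 to 1.04), which includes no difference. *Gad2* was again higher, 4.60-fold (1.75 to 17.2), from 117 against 4 UMIs.

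On the amacrine side, Ptf1a cells had more *Dlx1* than Tfap2b cells, 138 against 62.7 CPM, a ratio of 2.20 (1.29 to 4.09). *Dlx2* stood at 90.4 and 62.7 CPM, a ratio of 1.44 whose interval from 0.836 to 2.69 includes no difference. *Eya2* had 53 UMIs in Ptf1a cells and 1 in the 32 Tfap2b cells, a ratio of 6.29 with an interval from 1.08 to 253, and *Sp8* had 15 and 0 UMIs. *Dlx1* and *Eya2* were past 2-fold, and so was *Sp8* once 0.5 was added to both sums, beside 9.44% of 9625 genes counted with that addition. Nothing is read from the number past 2-fold, since the genes were chosen for a high level in precursor cells. The counts of *Sp8* are too few for a direction. With marker thresholds of 1 UMI the *Eya2* ratio turned to 0.666, and the *Dlx1* ratio was 1.77 at 1 UMI and 1.79 at 3, under 2-fold in both. Against progenitor cells, Ptf1a cells were 47.9-fold higher for *Dlx1*, 19.2-fold for *Dlx2*, 17.6-fold for *Sp8* and 6.47-fold for *Eya2*, beside 16.8% of 13431 genes past 2-fold. Nothing is read from this count, since the genes were chosen for a high level in ganglion or amacrine precursor cells. With cells that met more than 1 rule left out, *Dlx2* was 10.6-fold higher and *Eya2* 1.75-fold, which is under 2-fold.

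Within Ptf1a cells the level of *Tfap2b* divided the genes more sharply. *Dlx1* stood at 205 CPM (173 to 240) in 102 cells with no *Tfap2b* UMI, 132 CPM (99.6 to 170) in 61 cells with 1 to 3 and 73.4 CPM (54.8 to 96.2) in 102 cells with 4 or more. *Dlx2* stood at 173 CPM (145 to 206), 64.6 CPM (42.9 to 93.4) and 19.7 CPM (10.8 to 33.1), and *Eya2* at 65.0 CPM (48.0 to 86.2), 11.5 CPM and 0 CPM (0 to 5.20). *Eya2* was thus found in 0 of the 102 cells with most *Tfap2b*. *Sp8* had 9, 4 and 2 UMIs. The bins were of similar depth, with medians of 7027.5, 7057 and 6890 UMIs.

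Ptf1a cells were also divided by their *Dlx* UMIs, into 91 with 2 or more and 117 with none (medians 7616 and 6578 UMIs). *Ptf1a* itself was level, with a ratio of 1.06 (0.945 to 1.19), while *Tfap2b* stood at 266 against 799 CPM, a ratio of 0.333 (0.281 to 0.393). *Atoh7* was 1.64-fold higher (1.27 to 2.12) in cells with *Dlx* UMIs and *Eya2* 4.55-fold (2.16 to 10.7). *Gad2* was lower in them, with a ratio of 0.628 (0.400 to 0.972), the opposite direction from the cells with *Atoh7*. In Ptf1a cells the 3 vessel markers summed to 298 CPM, of which 558 of 561 UMIs were *Cldn5*, found in 132 of 265 cells, with 3 UMIs of *Pecam1* and 0 of *Cdh5*. In the 100 neurofilament cells with *Tfap2b* or *Ptf1a* and the 1 other mixed cell, *Dlx1* stood at 39 CPM, *Dlx2* at 10.1 CPM, and *Sp8* and *Eya2* had 0 UMIs, which allows up to 5.33 CPM.

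**Figure D3:**
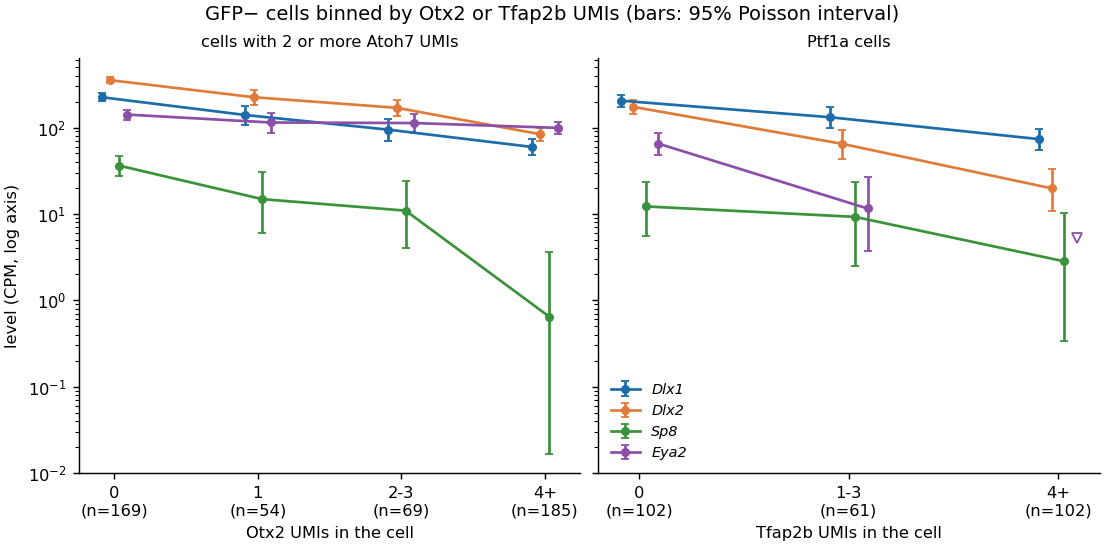
Level of each gene (CPM, log axis) in cells with 2 or more Atoh7 UMIs binned by Otx2 UMIs and in Ptf1a cells binned by Tfap2b UMIs, with the number of cells under each bin; bars are 95% Poisson intervals and the open triangle is the upper limit of a count of 0. Dlx1 falls from 224 to 59.5 CPM along Otx2 and from 205 to 73.4 CPM along Tfap2b, whereas Eya2 changes from 141 to 99.0 CPM along Otx2 and from 65.0 to 0 CPM along Tfap2b.

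The balance of the *Dlx* pair shifted along the groups. *Dlx2* made up 61.9% (53.2 to 70.2%) of the *Dlx1* and *Dlx2* UMIs in progenitor cells, 58.9% in Olig2 cells, 61.3% in Otx2/Crx cells and 62.0% (58.8 to 65.1%) in Atoh7 cells. It made up 52.3% (48.5 to 56.1%) in Pou4f2 cells, 43.9% (36.0 to 52.1%) in ganglion cells and 39.5% (34.9 to 44.3%) in Ptf1a cells. The intervals of Atoh7, Pou4f2 and Ptf1a cells did not meet. In the mixed cells with *Tfap2b* it made up 20.6% (8.70 to 37.9%) of 34 UMIs. In thinned cells the shares were 60.1% (54.4 to 65.6%) in Atoh7, 53.4% (46.6 to 60.2%) in Pou4f2 and 38.1% (31.3 to 45.2%) in Ptf1a cells, so that the intervals of Atoh7 and Pou4f2 cells overlapped. They also overlapped with cells that met more than 1 rule left out, 54.1 to 64.8% and 40.9 to 62.3%.

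**Figure D4:**
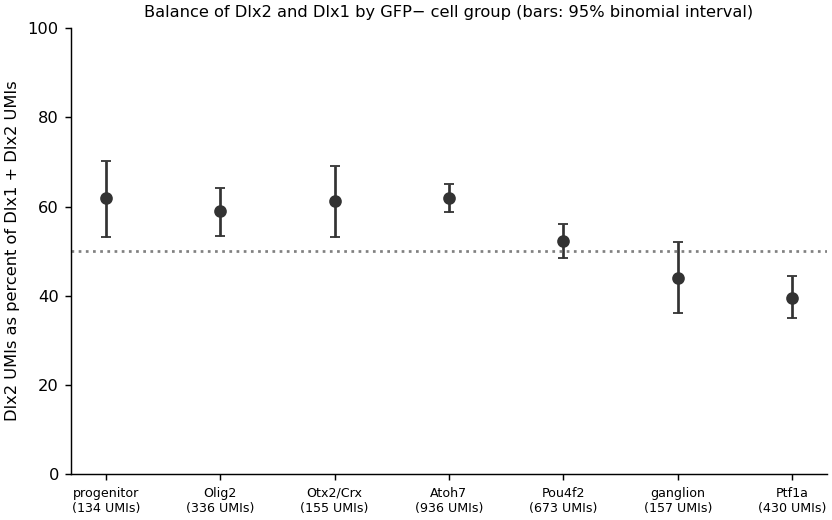
Dlx2 UMIs as a percent of Dlx1 and Dlx2 UMIs in 7 cell groups of the GFP− library, with 95% binomial intervals and the number of UMIs under each group; the dotted line marks equal numbers. The share is 62.0% in Atoh7 cells, 52.3% in Pou4f2 cells and 39.5% in Ptf1a cells.

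The genes were also compared between cells with and without UMIs of mitosis genes. Of Atoh7 cells, 66.0% had 3 or more UMIs of 10 mitosis genes such as *Top2a* and *Mki67*, against 81.8% of Olig2, 64.1% of progenitor, 38.5% of Otx2/Crx, 6.13% of Pou4f2, 4.91% of Ptf1a and 3.72% of ganglion cells. Among Atoh7 cells, *Dlx2* was level between the 128 with 3 or more and the 42 with none, 341 against 334 CPM, a ratio of 1.02 (0.828 to 1.27). *Dlx1* was lower in those with mitosis UMIs, 177 against 308 CPM, a ratio of 0.575 (0.453 to 0.735), as were *Sp8*, 21.9 against 64.4 CPM (0.340, 0.185 to 0.629), and *Eya2*, 115 against 161 CPM (0.712, 0.517 to 0.992). When cells were thinned before their mitosis UMIs were counted, the *Dlx1* ratio was 1.0 (0.671 to 1.5), and those of *Sp8* and *Eya2* had intervals that included 1. In Otx2/Crx cells both *Dlx* genes were higher in the 69 cells with mitosis UMIs than in the 56 with none, 4.60-fold (1.8 to 15) for *Dlx1* and 3.96-fold (2.01 to 8.66) for *Dlx2*, while *Eya2* had a ratio of 0.803 (0.488 to 1.33). In thinned cells the *Dlx2* ratio was 3.98 (1.6 to 11.2) and that of *Dlx1* 2.20 (0.699 to 7.51), which includes no difference. *Dlx2* was also higher in the 10 Pou4f2 cells with mitosis UMIs than in the 97 with none, 2.14-fold (1.52 to 2.97), and in 13 against 154 Ptf1a cells, 2.62-fold (1.52 to 4.29). Thinned, these ratios were 2.27 (1.0 to 4.51) from 6 cells and 4.91 (1.53 to 12.2) from 4 cells with mitosis UMIs. *Dlx1* had a ratio of 1.81 (1.23 to 2.58) in Pou4f2 cells, which was 0.847 (0.171 to 2.57) when thinned.

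The *Dlx* genes were often found in the same cell. Of kept GFP− cells thinned to 3200 UMIs, 46.2% (40.8 to 51.6%) of the 342 with a *Dlx1* UMI had a *Dlx2* UMI, against 6.0% (5.17 to 6.90%) of the 3019 without. Groups differ in level, so the comparison was repeated within them. In Atoh7 cells the shares were 76.1% (64.5 to 85.4%) of 71 and 37.7% (29.1 to 46.9%) of 122, in Pou4f2 cells 57.8% (44.8 to 70.1%) of 64 and 30.6% (21.7 to 40.7%) of 98, and in Ptf1a cells 38.4% (28.1 to 49.5%) of 86 and 9.55% (5.66 to 14.9%) of 178. In Otx2/Crx cells they were 45.5% (24.4 to 67.8%) of 22 and 8.33% (4.51 to 13.8%) of 156. The intervals did not meet in Ptf1a and Otx2/Crx cells, nor in Atoh7 and Pou4f2 cells. They overlapped in Olig2 cells, 27.0% (13.8 to 44.1%) of 37 and 20.3% (14.2 to 27.5%) of 153, and in ganglion cells, 4.35% (0.110 to 21.9%) of 23 and 7.76% (4.59 to 12.1%) of 219. At full depth, 60.8% (56.9 to 64.6%) of the *Dlx1* cells had a *Dlx2* UMI.

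*Sp8* kept to the *Dlx2* cells in 1 group and not in the other. Among thinned Atoh7 cells, 15 of the 16 with a *Sp8* UMI had a *Dlx2* UMI, a share of 93.8% (69.8 to 99.8%), against 48.0% (40.5 to 55.6%) of the 177 without. The rule for Atoh7 cells admits 1 *Pou4f2* UMI. Among cells with an *Atoh7* UMI, those with 1 *Pou4f2* UMI had 87.2 CPM of *Sp8* and 410 CPM of *Dlx2*. Those with none had 7.44 and 151 CPM. The part of such cells in the shares was not tested. Among thinned Pou4f2 cells, 28.6% (14.6 to 46.3%) of the 35 with *Sp8* had *Dlx2*, against 44.9% (36.1 to 54.0%) of the 127 without, and these intervals overlap. For *Eya2* in Pou4f2 cells, the share with *Dlx1* was 43.3% with and 37.3% without an *Eya2* UMI, also within counting error.

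Cells with several of the 4 genes were mostly Pou4f2 and Atoh7 cells. This is a description, since the genes were chosen for a high level in such cells. At full depth, 282 of the 3389 GFP− cells (8.32%, 7.41 to 9.30%) had UMIs of 3 or 4 of the genes, among them 94 Pou4f2, 84 Atoh7, 38 Olig2, 22 Ptf1a, 14 ganglion and 13 Otx2/Crx cells. This was 57.7% of Pou4f2 cells, 43.3% of Atoh7 cells, 19.8% of Olig2 cells and 0.418% of progenitor cells. All 4 genes were found in 68 cells, 33 of them Pou4f2 and 24 Atoh7 cells, and in 0 Ptf1a cells. In thinned cells the share with 3 or more was 17.9% (12.3 to 24.7%) of Pou4f2 and 15% (10.3 to 20.9%) of Atoh7 cells, and at both depths the intervals of these groups overlapped. Of GFP+ cells, 1 of 3689 had 3 of the genes.

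**Figure D5:**
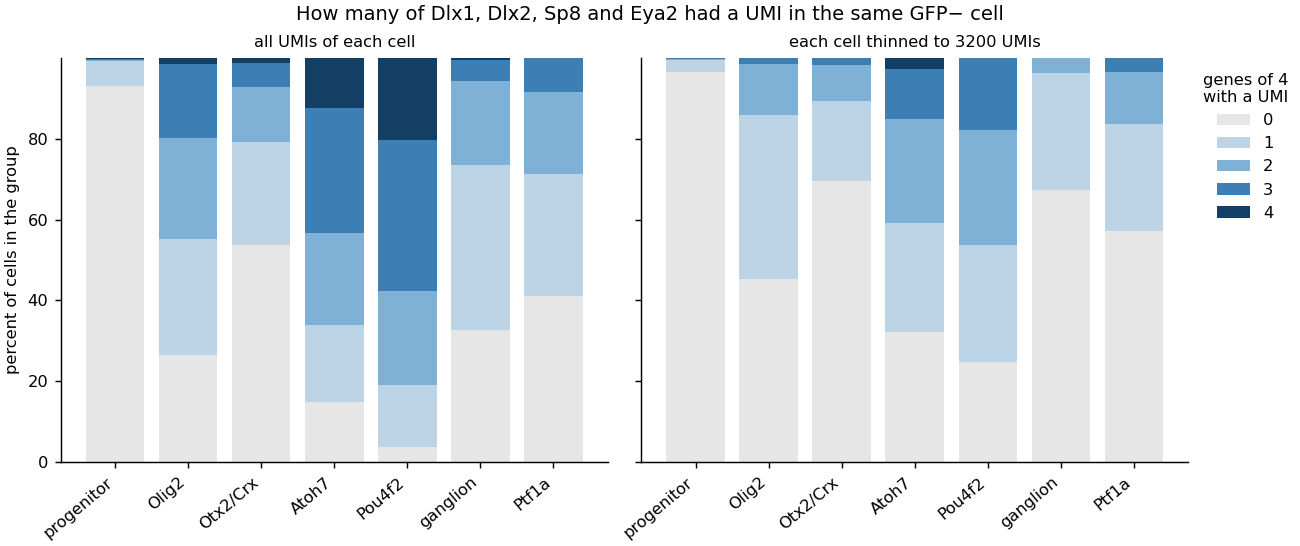
Percent of cells in each GFP− group in which 0, 1, 2, 3 or 4 of the genes had a UMI, at full depth and with each cell thinned to 3200 UMIs. Pou4f2 and Atoh7 cells hold the largest shares with 3 or more, 57.7% and 43.3% at full depth and 17.9% and 15% when thinned. The genes were chosen for a high level in such cells.

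The other distal-less genes and a part of the other SP genes had few UMIs. Of the other distal-less genes, *Dlx3* had 45 UMIs in the GFP− library, highest at 10.6 CPM in Ptf1a cells among the larger groups, *Dlx4*, *Dlx5* and *Dlx6* had 2, 1 and 2 UMIs, and the antisense RNAs *Dlx1as* and *Dlx6os1* had 21 and 0. Of 8 other SP genes, *Sp5*, *Sp7* and *Sp9* had 1, 5 and 7 UMIs and *Sp6* had 27, while the general factors *Sp1*, *Sp2*, *Sp3* and *Sp4* were between 8.71 and 30.7 CPM. In Pou4f2 over progenitor cells, 1 of 5 SP genes with 10 UMIs, *Sp6*, was past 2-fold upward and 0 downward, with a median log2 ratio of -0.40, beside 13% upward and a median of -0.01 over all genes. In Atoh7 over progenitor cells the counts were 1 and 1 of 5, with a median of 0.24, beside 7.2% upward and -0.04 over all genes.

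Of the partners of *Eya2*, *Six3* and *Six6* were highest in other groups. Among the larger groups, *Dach1* and *Dach2* were highest in Pou4f2 cells, as *Eya2* was. *Six3* stood at 380 CPM over the GFP− library and highest in ganglion cells (610 CPM), and *Six6* at 369 CPM and highest in progenitor cells (498 CPM), 137 CPM in Pou4f2 cells. *Dach1* stood at 89.9 CPM in Pou4f2 and 32.0 CPM in progenitor cells, and *Dach2* at 17.3 and 2.21 CPM. *Eya3* was between 8.51 and 19.7 CPM in the groups from progenitor to Ptf1a cells, and *Eya1*, *Eya4*, *Six2* and *Six4* were under 2 CPM over the library. Of 8 genes of the eyes absent, sine oculis and dachshund families other than *Eya2* with 10 UMIs, 2 (*Dach1* and *Dach2*) were past 2-fold upward and 1 (*Six6*) downward in Pou4f2 over progenitor cells, with a median log2 ratio of 0.44, beside 13% upward and a median of -0.01 over all genes. In Atoh7 over progenitor cells the counts were 1 and 2 of 8, with a median of -0.27, beside 7.2% upward and -0.04 over all genes.

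Among genes studied as targets or partners of the DLX factors, the GABA genes parted. *Gad2* stood at 94.4 CPM in Pou4f2, 65.4 CPM in Ptf1a, 33.2 CPM in ganglion, 23.4 CPM in Atoh7 and 9.96 CPM in progenitor cells. The vesicular GABA transporter gene *Slc32a1* stood at 37.2 CPM in Ptf1a and 3.85 CPM in Pou4f2 cells, and *Gad1* had 4 UMIs in the library. *Isl1* stood at 988 CPM in Pou4f2, 112 CPM in Atoh7 and 6.91 CPM in progenitor cells, and *Ntrk2*, a neurotrophin receptor gene, was highest in ganglion cells (41.3 CPM). All 8 genes of this list with 10 UMIs were past 2-fold upward in Pou4f2 over progenitor cells, with a median log2 ratio of 2.1, beside 13% of all genes and a median of -0.01, but *Pou4f1*, *Pou4f2*, *Crx* and *Otx2* among them also set the groups. In Atoh7 over progenitor cells 5 of 8 were upward and 0 downward, with a median of 1.56, beside 7.2% of all genes and a median of -0.04, and *Pou4f2*, *Crx* and *Otx2* were among the 5.

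Over 8 cell groups of at least 50 cells, the genes with the most similar profiles were ranked by Pearson correlation of log2(CPM + 1) among 10536 genes that set no group, as a description over groups of 1 library. *Dlx1* and *Dlx2* correlated at 0.95 with each other, and the other pairs of the 4 at 0.808 to 0.892. Nearest to *Dlx1* were *Abracl*, *Eif4g3*, *Zbtb17*, *Pdap1* and the long noncoding RNA *Miat*, and nearest to *Dlx2* were *Myo18a*, *Abracl*, *Clint1*, *Timm8b* and *Cdc42se2*, with correlations of 0.926 to 0.944. Most of these span a narrow range of levels, but *Miat* stood at 473 CPM in Pou4f2 and 53.3 CPM in progenitor cells. Nearest to *Sp8* was *Gal*, which encodes the neuropeptide galanin, at 0.942, with 1889 CPM in Atoh7, 1020 CPM in Pou4f2 and 15.7 CPM in progenitor cells, followed by *Lancl1*, *Ntmt1*, *Bysl* and *Trmt5*. Nearest to *Eya2* were *Prdm2*, *Anks1*, *Kif5b*, *Pcdh19* and *Mfng*, a modulator of Notch receptors that stood at 435 CPM in Pou4f2 and 26.4 CPM in progenitor cells.

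Markers of cells from outside the neural retina were low in the groups described. In Atoh7 cells the lens, pigment epithelium and microglia markers, 3 genes each, had 0 UMIs, the mesenchyme markers 1 UMI, the blood markers 9 UMIs and the vessel markers 22 UMIs, all of *Pecam1* in 4 cells. In Pou4f2 cells these 6 lists summed to at most 5.14 CPM, that of the blood markers. In Ptf1a cells, beside *Cldn5*, the mesenchyme markers had 18 UMIs (9.57 CPM) and the other lists at most 4.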

How the data were processed

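Single-cell UMI counts were read from 1 GFP+ and 1 GFP− droplet library (10x Chromium 3′ v2). The authors deposited whole-number counts per gene and cell from Cell Ranger 2.1.1, aligned to mm10, for barcodes called as cells and not normalized. The libraries held 16010591 (GFP+) and 46778924 (GFP−) UMIs in 3728 and 4445 cells.

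The 4 genes, the gene lists, the markers and the comparisons were chosen with earlier results of these data known. The filter kept cells with more than 250 and fewer than 3500 genes whose mitochondrial fraction was below 0.25. This removed 39 GFP+ and 1055 GFP− cells by the upper limit. UMIs were summed over the cells of each group and scaled by all UMIs. Scrublet (scanpy 1.11.5, expected rate 0.03) marked 3 GFP+ and 55 GFP− cells as doublets, of which 2 and 0 had been kept, and they were left in. For comparisons of shares, cells were thinned to 3200 UMIs, which left out 579 GFP+ and 28 GFP− cells. A count of 0 is bounded by its exact interval.

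A gene was counted as past 2-fold, with 0.5 added to both sums, among genes with at least 10 UMIs over the groups compared. The genes named are the 4 genes, 4 lists (DLX family, eyes absent, sine oculis and dachshund genes, SP family, and genes studied as DLX targets or partners) and the 5 genes of most similar profile. Binning by marker UMIs, the division by *Dlx* UMIs and the Atoh7 comparisons were added after seeing the data. The intervals of ratios were tried on simulated Poisson counts, the distribution they assume, so spread between cells beyond it was not tested. Python 3.11.15, numpy 2.4.6, pandas 2.3.3, scipy 1.17.1, edgeR 4.0.16 (TMM factors) and DESeq2 1.42.0 (size factors) were used. Gene positions came from GENCODE M21, whose symbols and identifiers matched the files for the 4 genes, and promoter windows from RefSeq, which held *Dlx1*, *Dlx2* and *Sp8*. Some genes of the lists and markers are not reported here, and the list counts leave out those of the lists.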

Additional observations from a re-analysis of the deposited data

How the results depend on the processing

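No paired analysis was possible because each gate had 1 library and no replicate numbers. Of 284 alternative values of the ratios and of the *Dlx1* and *Dlx2* share, 243 lay within the counting interval of the reported value, 40 lay outside it and 1, of a value past 2-fold, reversed. Ratios under 2-fold also changed side of 1 in Atoh7 over Pou4f2 cells, for *Dlx1*, *Dlx2* and *Eya2*. TMM and DESeq2 scaling, the mean of per-cell values, leaving out doublets (0 of the kept GFP− cells) and the ganglion rule without neurofilament genes moved none of them. With 0 doublets to leave out, the ratios between GFP− groups could not change under that setting. Those with no filter on cells repeated those with no upper limit on genes. The 243 values are therefore not all separate checks. The reversal was that of *Eya2* in Ptf1a over Tfap2b cells, 0.666 at a threshold of 1 UMI, which rests on 1 UMI in the Tfap2b cells at the reported threshold.

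With no upper limit on genes, the GFP− over GFP+ ratio of *Dlx1* was 8.51 and the Pou4f2 over ganglion ratio of *Sp8* 15.5, and with no filter on cells they were 8.51 and 15.5. Thinning gave 35.3 for *Dlx2* in Pou4f2 over progenitor cells, 46.8 in Atoh7 and 13.9 in Ptf1a over progenitor cells, 14.6 for *Sp8* in Pou4f2 over ganglion cells, 0.744 for *Eya2* in Atoh7 over Pou4f2 cells, and 46.2% of *Dlx1* cells with *Dlx2*. Leaving out cells that met more than 1 rule gave 40.3, 26.5 and 21.8 for *Dlx1*, *Dlx2* and *Eya2* in Pou4f2 over progenitor cells, 4.70, 16.3 and 40.2 for *Dlx1*, *Dlx2* and *Sp8* in Pou4f2 over ganglion cells, and 2.15, 2.95, 0.622 and 1.74 for *Dlx1*, *Dlx2*, *Sp8* and *Eya2* in Atoh7 over Pou4f2 cells. It also gave 10.6 for *Dlx2* and 1.75 for *Eya2* in Ptf1a over progenitor cells, and 50.9% of *Dlx1* cells with *Dlx2*.

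A marker threshold of 1 UMI gave 93.6 for *Dlx2* in Pou4f2 and 34.5 in Ptf1a over progenitor cells, 27.9 for *Sp8* and 20.3 for *Eya2* in Atoh7 over progenitor cells, and 0.600, 0.864, 0.130 and 0.615 for *Dlx1*, *Dlx2*, *Sp8* and *Eya2* in Atoh7 over Pou4f2 cells. A threshold of 3 UMIs gave 33.5, 23.9 and 25.1 for *Dlx1*, *Dlx2* and *Eya2* in Pou4f2, 45.5 and 47.1 for *Dlx1* and *Dlx2* in Atoh7 and 25.6 and 10.5 for them in Ptf1a over progenitor cells, and 1.36 and 1.97 for them in Atoh7 over Pou4f2 cells. *Sp8* in Ptf1a over Tfap2b cells had no ratio, since the latter held 0 UMIs. The *Dlx2* share of *Dlx* UMIs in Ptf1a cells was 29.5% in cells that met 1 rule. The cause of these changes was not tested. With a minimum of 1 UMI the number of genes 2-fold higher in Pou4f2 than progenitor cells was 4415 and with 50 UMIs 1058, against 1722. Of the 5 genes of most similar profile, 1 to 3 were shared under Spearman correlation and 2 to 3 with a pseudocount of 10 CPM.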
